A study of Mus musculus with 8 samples.

Results

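The expression of the ligands BAFF (Tnfsf13b) and APRIL (Tnfsf13) and of their receptors BAFF-R (Tnfrsf13c), TACI (Tnfrsf13b) and BCMA (Tnfrsf17) was examined in B cells of the bone marrow after sham surgery (Sham) or ovariectomy (OVX) of mice. The 5 genes were chosen by symbol as the ligands and receptors of this system, out of 54532 gene identifiers in the count table, and all 5 were among the 15305 genes with enough reads to be tested. RNA was sequenced in 3 Sham and 3 OVX libraries of B cells that had been enriched from bone marrow with magnetic beads. OVX removes the ovaries and serves as a surgical model of menopause, while Sham animals undergo surgery without removal of the ovaries. No treatment, allele or transgene other than the surgery is given for these libraries, and their labels state neither the age nor the strain of the mice. The labels also do not say whether each library came from its own mouse, so p-values measure the spread between libraries, which may be technical.

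BAFF and APRIL are cytokines of the TNF superfamily that are made mainly by myeloid and stromal cells, and both are released after cleavage by a furin convertase, BAFF from the cell surface and APRIL inside the cell. BAFF-R binds BAFF alone and keeps transitional and mature B cells alive through the noncanonical NF-κB pathway, in which binding of TRAF3 to the receptor spares the kinase NIK. TACI and BCMA bind both ligands, and BCMA is best known as the receptor that supports the survival of plasma cells in the bone marrow.

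The genes lie at separate loci except for APRIL, which is embedded in a compact cluster. By RefSeq annotation of GRCm38.p6, Tnfrsf13c (ENSMUSG00000068105) lies at chr15:82221742-82224380 on the minus strand and Tnfrsf17 (ENSMUSG00000022496) at chr16:11313232-11320074 on the plus strand, and no other annotated gene overlaps either. Tnfsf13b (ENSMUSG00000031497) lies at chr8:10006229-10036000 on the plus strand, also without an overlapping gene. Tnfrsf13b (ENSMUSG00000010142) at chr11:61126283-61153170 on the plus strand shares its end with the gene Usp22. Tnfsf13 (ENSMUSG00000089669) at chr11:69682577-69685554 on the minus strand is covered by the readthrough gene Tnfsfm13, which joins Tnfsf12 and Tnfsf13, and by the long noncoding RNA gene Tnfsf13os. Its transcription start lies 685 bases from the near end of Tnfsf12, which encodes the cytokine TWEAK.

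The study asked how HIF-1α acts in B cells after OVX, so the 250 bases before the first listed transcription start of each of the 5 genes were searched on both strands for the HIF core (ACGTG or GCGTG). The same windows were searched for the motifs of 2 B cell and myeloid factors, EBF1 and PU.1 (GAGGAA), and for C/EBP (TTGCNNAA) and NF-κB. The HIF core was found before 1 of the 5 genes, Tnfsf13, and in 38.6% of 27025 promoters of this length. The PU.1 core was found before 1 of the 5 genes, Tnfrsf17, and in 23.1% of promoters. The motifs of EBF1, C/EBP and NF-κB occurred before none of the 5 genes and in 0.788%, 9.55% and 7.01% of all promoters. A match describes these letters and is not evidence of a bound site. Both matches are shown with 12 bases on each side, 5′ to 3′ on the strand of the gene, with the match in capitals, which in both cases reads as the reverse complement of the motif as written above, and the sequences are those of RefSeq for GRCm38.p6. The Tnfsf13 match lies 94 to 98 bases before the start, in chr11:69685636-69685664 on the minus strand, and the Tnfrsf17 match lies 115 to 120 bases before the start, in chr16:11313677-11313706 on the plus strand.
Tnfsf13, HIF core: ccttctaaacccCACGCtgcccagcttat
Tnfrsf17, PU.1 core: tgggtggtaactTTCCTCtataaataggtg
The window before Tnfrsf13c is shown whole because it belongs to the receptor that mature B cells rely on and holds none of the searched motifs. It spans chr15:82224381-82224630 on the minus strand and has a GC content of 63.2%, the highest of the 5 windows, which otherwise ranged from 48.8% to 56.4%.
Tnfrsf13c, upstream window: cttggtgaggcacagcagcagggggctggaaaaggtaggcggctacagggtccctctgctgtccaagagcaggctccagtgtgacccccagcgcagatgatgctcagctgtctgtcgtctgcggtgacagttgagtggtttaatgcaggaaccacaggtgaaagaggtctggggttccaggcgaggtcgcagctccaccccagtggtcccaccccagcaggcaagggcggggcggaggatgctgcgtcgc

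The libraries held 23838775 to 33136701 reads assigned to genes. Wherever the libraries of a group are listed, they stand in the order of replicates 1, 2 and 3. Levels are given in CPM, which are reads scaled by the library total with TMM factors, and a level does not account for gene length, so levels of different genes are not compared. The B cell label fitted the markers, with Cd79a, a chain of the B cell receptor complex, at 1548 to 1883 CPM and Pax5, the B cell identity factor, at 1195 to 1329 CPM in every library. The libraries were not alike in the markers of other cells. The 12 neutrophil genes took up 0.248%, 0.339% and 0.922% of all reads in the Sham libraries against 0.4%, 0.109% and 0.117% in the OVX libraries, and all 12 were highest in Sham replicate 3. The 10 mature B cell genes took up 0.48% of reads in Sham replicate 2 and 0.26% to 0.303% in the other libraries. Across all 15305 genes, 0 (0%) passed an adjusted p of 0.05 in the quasi-likelihood test of edgeR (Benjamini-Hochberg), and DESeq2 and limma-voom also gave 0. At an unadjusted p under 0.05 there were 225 genes higher in OVX (1.47%) and 349 lower (2.28%). The libraries of the groups did not overlap for 662 genes higher in OVX (4.33%) and for 630 genes lower (4.12%).

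None of the 5 ligand and receptor genes was therefore called. The fitted fold change was above 0 for 1 of them, BAFF-R, and below 0 for 4. In the quasi-likelihood test with all 6 libraries, BCMA was the 1 gene of the 5 with an unadjusted p under 0.05, and it was also the 1 with groups that did not overlap, both toward lower values in OVX. Which gene fell under that unadjusted threshold depended on the test, since DESeq2 gave an unadjusted p of 0.0695 for BCMA and 0.0184 for BAFF, and edgeR's exact test gave 0.0258 and 0.0442. In this enriched bulk population, fewer cells of a type and less RNA per cell cannot be told apart.

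**Figure D1:**
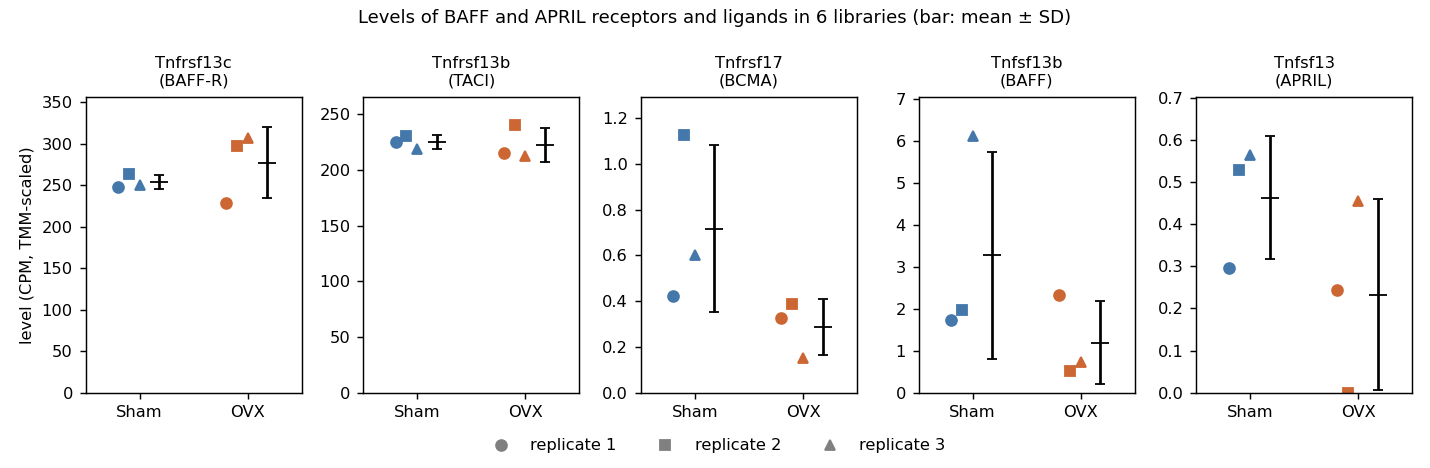
Levels in CPM (vertical axes, each from 0 and with its own scale) of the 5 genes in the 3 Sham (blue) and 3 OVX (orange) libraries, with the symbol giving the replicate number and the black mark giving the mean ± SD. TACI stayed between 212.7 and 240 CPM in every library, BCMA was lower in each OVX library than in each Sham library, and BAFF was highest in Sham replicate 3 at 6.12 CPM.

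The levels of BAFF-R, the main survival receptor, overlapped between the groups and were spread more widely among the OVX libraries. Tnfrsf13c was at 248.3, 263.4 and 251.1 CPM in the Sham libraries against 228.7, 297.1 and 306.7 CPM in the OVX libraries. The Sham libraries lay close together, and the OVX libraries lay on both sides of them, with replicate 1 below and the other two above. The mean was 277.5 ± 42.6 CPM in OVX and 254.3 ± 8.06 CPM in Sham (SD, n = 3 per group). OVX differed from Sham by a log2 fold change of 0.13 (standard error 0.12, 95% interval -0.14 to 0.40), with an adjusted p of 0.815 by edgeR's quasi-likelihood test and p = 0.4 in a two-sided exact permutation test, where 3 libraries against 3 cannot go below 0.1. The interval reaches from a fold of 0.905 to 1.32. Leaving out OVX replicate 1, when the remaining OVX libraries were higher than each Sham library, gave 0.25, and leaving out OVX replicate 3 gave 0.05. It was -0.04 once the share of neutrophil genes entered the model as a covariate.

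TACI, which binds both ligands and restrains B cell numbers, was the steadiest of the 5 genes. Tnfrsf13b was at 225.5, 230.7 and 218.7 CPM in the Sham libraries against 215.1, 240 and 212.7 CPM in the OVX libraries. How reads were counted where Usp22 overlaps the gene is not given in the sources used here. The OVX libraries enclosed the range of the Sham libraries, and the highest library was 1.13 times the lowest. The mean was 222.6 ± 15.2 CPM in OVX and 225 ± 6.04 CPM in Sham (SD, n = 3 per group). On the log2 scale the fold change was -0.02 (standard error 0.07, 95% interval -0.18 to 0.15), with an adjusted p of 0.962 by edgeR's quasi-likelihood test and an exact permutation p of 0.8. Its interval reaches from a fold of 0.88 to 1.11, so a larger difference in the mean lies outside it. The sign of so small a value depended on single libraries, since it turned to 2e-04 when Sham replicate 2 was left out, to 0.010 when OVX replicate 1 was and to 0.018 when OVX replicate 3 was.

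The spread of these receptors can be set beside that of other genes. Over the 6 libraries the SD of log2 CPM was 0.066 for Tnfrsf13b, smaller than in most genes, since 12.9% of the 9252 genes with a mean of at least 10 CPM had a smaller one and the median was 0.125. It was 0.162 for Tnfrsf13c, and 66.9% of those genes varied less. Counting error alone would give about 0.019 for Tnfrsf13b and 0.017 for Tnfrsf13c. The log2 ratio of the 2 receptors, Tnfrsf13b over Tnfrsf13c, was -0.14, -0.19 and -0.20 in the Sham libraries against -0.09, -0.31 and -0.53 in the OVX libraries. This ratio does not depend on library scaling, and it differed by -0.13 between OVX and Sham (two-sided exact permutation test, p = 0.4, adjusted over 3 ratios 0.6).

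For BCMA, the plasma cell receptor, each OVX library lay below each Sham library, on few reads. Tnfrsf17 had 10, 32 and 15 reads in the Sham libraries against 8, 11 and 5 reads in the OVX libraries, which is 57 against 24 reads in all. These reads gave 0.422, 1.13 and 0.604 CPM in Sham and 0.326, 0.388 and 0.151 CPM in OVX. The highest OVX library, replicate 2, lay just under the lowest Sham library, replicate 1. The mean was 0.289 ± 0.123 CPM in OVX and 0.718 ± 0.366 CPM in Sham (SD, n = 3 per group). This was a log2 fold change of -1.33 (standard error 0.54, 95% interval -2.60 to -0.07), with an unadjusted p of 0.0413 and an adjusted p of 0.811 by edgeR's quasi-likelihood test. The exact permutation p was 0.1, the smallest the design allows. Of all genes tested, 2.28% were lower at that unadjusted threshold and 4.12% were lower without overlap.

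The size of the BCMA difference depended on single libraries. Without Sham replicate 2, the library with 32 reads, it was -0.84 on the log2 scale. Without OVX replicate 3, the library with 5 reads, it was -1.004, and without OVX replicate 2 it was -1.62. The unadjusted p in edgeR's quasi-likelihood test rose to between 0.0598 and 0.185 when any of Sham replicates 2 and 3 and OVX replicates 1 and 3 was left out, and it was 0.0508 with the replicate number as a block. Relative to BAFF-R in the same library, the log2 ratio of Tnfrsf17 over Tnfrsf13c was -9.13, -7.85 and -8.65 in the Sham libraries against -9.37, -9.52 and -10.85 in the OVX libraries. The groups were apart in this ratio, with a difference of -1.37 (two-sided exact permutation test, p = 0.1, adjusted over 3 ratios 0.3). The ratio rests on the same Tnfrsf17 reads and is not separate evidence. From the lowest to the highest library, CPM spanned 7.45 times for Tnfrsf17 and 1.34 times for Tnfrsf13c.

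The genes listed as plasma cell markers did not all move with BCMA. Jchain, which joins secreted antibody chains, was at 111.7, 640.5 and 515.9 CPM in the Sham libraries against 256.8, 105.5 and 71.3 CPM in the OVX libraries. Its groups overlapped, and the log2 fold change was -1.55 (adjusted p = 0.811, edgeR). Prdm1, the regulator that drives plasma cell formation, was at 3.42, 9.48 and 6.60 CPM in Sham and 3.50, 3.85 and 2.88 CPM in OVX, a log2 fold change of -0.93 with an unadjusted p of 0.0354 and an adjusted p of 0.811 by edgeR. Sham replicate 2 was the highest library for BCMA and for 2 of the 9 other plasma cell genes, Jchain and Prdm1. It was the lowest library for Irf4, Slamf7 and Sdc1, at 391.9, 152.7 and 51.4 CPM. That library also had the lowest share of reads on the 12 pro-B and pre-B genes, 0.23%. Of these 9 plasma cell genes, 4 had a fold change above 0 and 5 below, with a median log2 fold change of -0.19. Those above were Irf4, Slamf7, Mzb1 and Sdc1. Those below were Jchain, Prdm1, Xbp1 (-0.19), Derl3 (-0.37) and Ly6k (-0.95). The summed share of the 9 genes was 0.129% to 0.161% of reads in Sham and 0.116% to 0.139% in OVX, and no gene of the list was at 0 in any library. Whether the reads of Irf4, Slamf7, Mzb1 and Sdc1 came from plasma cells or from other B cells was not tested. The part of plasma cell content in the BCMA values was not tested either.

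The ligand BAFF differed widely between libraries of the same group. Tnfsf13b had 41, 56 and 152 reads in the Sham libraries against 57, 15 and 24 reads in the OVX libraries. In CPM these were 1.73, 1.97 and 6.12 in Sham and 2.32, 0.529 and 0.727 in OVX. Sham replicate 3 stood far above the rest, and OVX replicate 1 lay above the other two Sham libraries, so the groups overlapped. The mean was 1.19 ± 0.983 CPM in OVX and 3.27 ± 2.47 CPM in Sham (SD, n = 3 per group). OVX lay at a log2 fold change of -1.47 (standard error 0.70, 95% interval -3.12 to 0.17), with an adjusted p of 0.811 by edgeR's quasi-likelihood test and an exact permutation p of 0.3. Leaving out Sham replicate 3 gave -0.66, and leaving out OVX replicate 1 gave -2.36.

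BAFF reads followed the reads of neutrophil genes from library to library. The 12 neutrophil genes, among them those for the granule proteins Camp, Ngp and Ltf, had 59179, 94086 and 228462 reads in the Sham libraries against 98060, 31509 and 38852 reads in the OVX libraries. Per 10000 of these reads there were 6.93, 5.95 and 6.65 BAFF reads in Sham and 5.81, 4.76 and 6.18 in OVX. On that scale the highest library was 1.455 times the lowest, whereas BAFF in CPM spanned 11.6 times from the lowest to the highest library. With the neutrophil share as a covariate, which was added after seeing the data, the log2 fold change of Tnfsf13b was -0.16. That fit rests on the same likeness of BAFF and neutrophil reads and is not separate evidence. All 12 neutrophil genes had a fold change below 0, with a median log2 value of -1.26, and none was at 0 in any library. The 12 monocyte and macrophage genes were also all below 0, with a median of -0.48, and their summed share was highest in Sham replicate 2 at 0.228%, with 0.187% in Sham replicate 3. By gene, 6 of the 12 were highest in Sham replicate 2 and 5 in Sham replicate 3, which are Lyz2, Ly6c2, Ccr2, Fn1 and Cx3cr1. Ly6c2, a marker of inflammatory monocytes, was at 31.0, 62.2 and 150.8 CPM in Sham and 56.2, 15.5 and 12.99 CPM in OVX, and as for BAFF the highest was Sham replicate 3 and the lowest were OVX replicates 2 and 3. By library totals alone, Sham replicate 3 was also highest for 6 of 8 dendritic cell genes (median log2 value -1.19 over the 7 tested). In CPM, which also use TMM factors, it was highest for Itgax too, at 6.357 CPM against 6.34 CPM in Sham replicate 2. Of 10 T and NK cell genes (median -1.35), 7 were highest in Sham replicate 3. Which cells carried the BAFF reads was not tested.

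**Figure D2:**
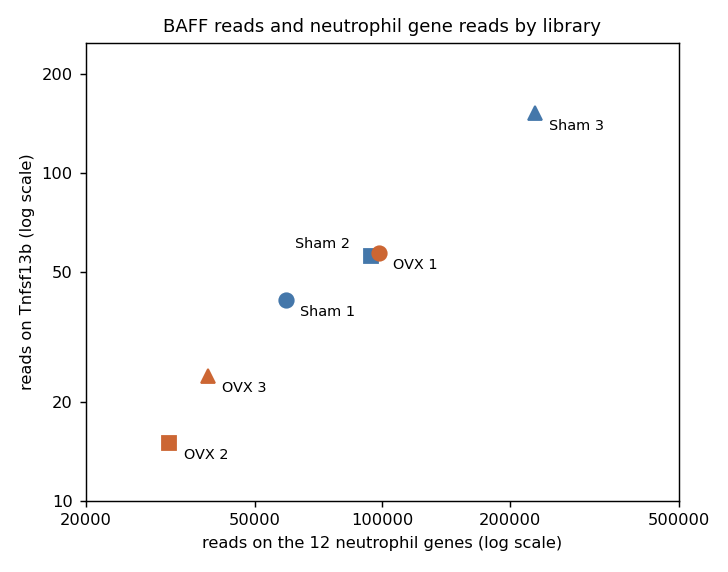
Reads on Tnfsf13b (vertical axis, log scale) against reads on the 12 neutrophil genes (horizontal axis, log scale) in the 3 Sham (blue) and 3 OVX (orange) libraries, with the symbol giving the replicate number. The libraries run from 15 BAFF reads and 31509 neutrophil reads in OVX replicate 2 to 152 and 228462 in Sham replicate 3, with Sham replicate 2 and OVX replicate 1 side by side.

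APRIL had few reads in every library, and no difference was detectable at this depth. Tnfsf13 had 7, 15 and 14 reads in the Sham libraries against 6, 0 and 15 reads in the OVX libraries. These were 0.296, 0.528 and 0.563 CPM in Sham and 0.244, 0 and 0.454 CPM in OVX, and a count of 0 allows up to 3 reads, or 0.106 CPM, in OVX replicate 2. This limit covers counting error only. The groups overlapped, with OVX replicate 3 above Sham replicate 1. The mean was 0.233 ± 0.227 CPM in OVX and 0.462 ± 0.146 CPM in Sham (SD, n = 3 per group). The fitted log2 fold change was -0.95 (standard error 0.85, 95% interval -2.95 to 1.05), with an adjusted p of 0.815 by edgeR's quasi-likelihood test and an exact permutation p of 0.2. It was -0.38 without OVX replicate 2 and -1.95 without OVX replicate 3.

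Reads of APRIL may be shared with the genes that overlap it, and whether counting used the strand is not given in the sources used here. The readthrough gene Tnfsfm13 had 1, 12 and 8 reads in the Sham libraries against 5, 3 and 6 reads in the OVX libraries, too few to be tested. The neighbour Tnfsf12 had 26, 44 and 17 reads in Sham and 17, 10 and 43 reads in OVX, with a log2 fold change of -0.49 (adjusted p = 0.83, edgeR). OVX replicate 2 had the fewest reads of both Tnfsf12 and Tnfsf13, and Sham replicate 2 had the most of both, level with OVX replicate 3 for Tnfsf13. In CPM, OVX replicate 2 was again the lowest for both, but the highest libraries differed. Sham replicate 2 was highest for Tnfsf12 at 1.55 CPM. Sham replicate 3 was highest for Tnfsf13 at 0.563 CPM and had 0.684 CPM of Tnfsf12. The balance of the ligands, as the log2 ratio of Tnfsf13b over Tnfsf13, was 2.47, 1.87 and 3.39 in the Sham libraries and 3.15 and 0.66 in OVX replicates 1 and 3, with 0.5 added to each count. OVX replicate 2 had 15 BAFF reads and 0 APRIL reads, so its ratio is a lower bound, at least 2.32 with APRIL at 3 reads, and the 0.5 added to a count of 0 sets its value of 4.95. With that value the difference between the groups was 0.34 and had p = 0.9 in the two-sided exact permutation test (adjusted over 3 ratios 0.9). Leaving out Sham replicate 2 turned it to -0.01, and leaving out OVX replicate 2 turned it to -0.67.

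The low-count genes were also the variable ones. The SD of log2 CPM over the 6 libraries was 0.804 for Tnfrsf17, 1.2 for Tnfsf13b and 1.17 for Tnfsf13. Counting error alone would give about 0.461, 0.246 and 0.725, so BAFF had the widest margin over it. These margins are rough. The APRIL count of 0 had to be raised to compute its counting error, and log2 CPM uses a prior count of 2, which narrows the spread of low counts.

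**Figure D3:**
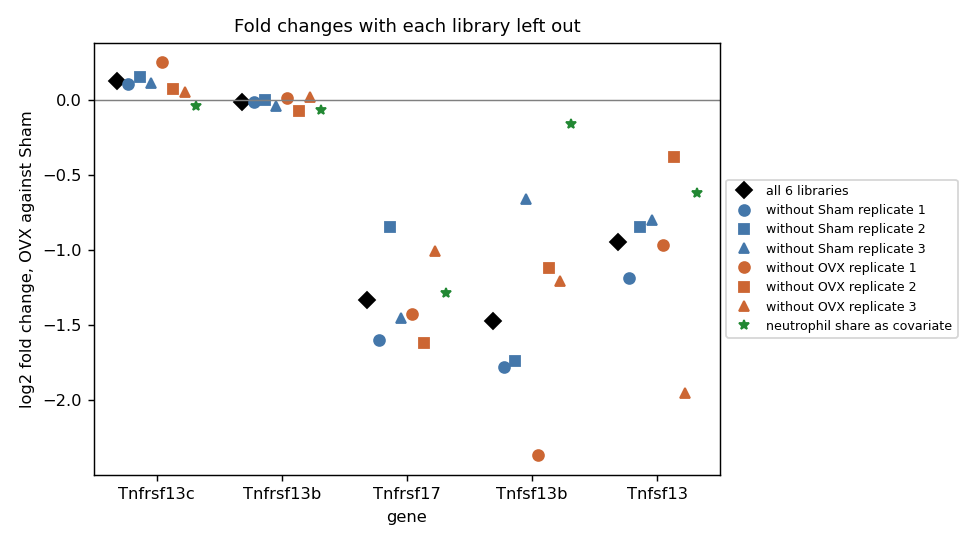
Log2 fold change, OVX against Sham (vertical axis), of each of the 5 genes (horizontal axis) with all 6 libraries (black), with each Sham (blue) or OVX (orange) library left out in turn, and with the neutrophil share as a covariate (green). BAFF-R and TACI stayed between -0.07 and 0.25, BCMA between -1.62 and -0.84, BAFF between -2.36 and -0.16, and APRIL between -1.95 and -0.38.

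The genes whose pattern over the 6 libraries was most like that of each gene were listed by Pearson's r of log2 CPM. These correlations describe 6 libraries that share their preparation and depth, and with 9251 or 9252 genes compared high values are common. For Tnfsf13b the closest genes were Camp (r = 0.997) and Ngp (r = 0.996), which encode neutrophil granule proteins, and Alox5ap (r = 0.996), which is needed for leukotriene synthesis. For Tnfsf13b 111 genes were above 0.95, against 10 to 28 for the other genes. For Tnfrsf13c they were Coq10b (r = 0.991), Srpk3 (r = 0.97) and Eif1a (r = 0.966). For Tnfrsf13b they were 2610044O15Rik8 (r = 0.988), Mcat (r = 0.987) and Zfp65 (r = 0.973). For Tnfrsf17 they were Galnt11 (r = 0.984), Cars2 (r = 0.976) and Zswim6 (r = 0.976). For Tnfsf13 they were Decr1 (r = 0.989), Scarb1 (r = 0.986) and Samsn1 (r = 0.966). Camp itself was at 256.4, 250.3 and 681.9 CPM in the Sham libraries against 301.7, 94.0 and 106.3 CPM in the OVX libraries. Among the 5 genes themselves, r was 0.27 between Tnfrsf13c and Tnfrsf13b, 0.64 between the ligands, and -0.75 between Tnfrsf13c and Tnfsf13b. Every r of Tnfsf13 rests on 0 to 15 reads, and the prior count sets its log2 CPM in OVX replicate 2, which had 0. Tnfsf13b, Decr1, Scarb1 and Samsn1 were also lowest in that library.

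The pathway around the receptors was then described with 43 genes listed by role, all of which were tested. None was called, 28 had a fold change above 0 and 15 below, and their median log2 fold change was 0.05 against -0.01 over all genes tested. Scaling on 12 general B cell genes in place of TMM shifted the median over all genes by -0.07, a size at which the sign of small fold changes depends on the scaling. At an unadjusted p under 0.05 there were 2 genes, Traf6 and Nfkbia, both higher in OVX (1.47% of all genes were). The groups did not overlap for 3 genes, all higher in OVX (4.33% of all genes were), among them Traf6 and, named here after its values were seen, Map3k7.

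Genes that process the ligands and receptors come first. Of the 9 genes, 7 were above 0 and 2 below, with a median log2 fold change of 0.09, which became 0.02 when Sham replicate 3 was left out. Furin, the convertase that releases both ligands, had the lowest value, -0.18, with 53.1 ± 3.92 CPM in Sham and 46.9 ± 5.67 CPM in OVX (SD, n = 3 per group). Sdc1, a proteoglycan that binds APRIL and also marks plasma cells, had the highest, 0.28, with 69.4 ± 17.2 CPM in Sham and 84.3 ± 14.2 CPM in OVX.

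Among the 9 adaptor genes, 4 were above 0 and 5 below, with a median log2 fold change of -0.01, which became 0.05 when Sham replicate 2 was left out. With reads scaled by library totals alone, Sham replicate 2 was the highest library for 7 of these 9 genes. In CPM, which also use TMM factors, Traf2 among these 7 was instead highest in OVX replicate 3. It was at 65.7 CPM there against 64.6 CPM in Sham replicate 2. Traf6, an adaptor that carries TACI signals to canonical NF-κB, was at 130.2, 115 and 124 CPM in the Sham libraries against 143.5, 154.5 and 148.9 CPM in the OVX libraries. Every OVX library was higher than every Sham library. The log2 fold change was 0.28 (standard error 0.07, 95% interval 0.11 to 0.44), with an unadjusted p of 0.00529 and an adjusted p of 0.811 by edgeR's quasi-likelihood test. Traf3, which couples BAFF-R to noncanonical signaling, was at -0.04 and Traf2 at -0.01 on the log2 scale. Traf1 had the lowest value, -0.82, with 25.5 CPM in Sham replicate 2 and 3.59 to 11.2 CPM in the other libraries.

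The 9 kinase genes split into 5 above and 4 below 0, with a median log2 fold change of 0.01, or -0.06 with scaling on the general B cell genes. Map3k14, which encodes NIK, was at 58.4, 78.8 and 62.8 CPM in the Sham libraries against 62.2, 65.8 and 71.1 CPM in the OVX libraries, a log2 fold change of -0.01 (standard error 0.12). Chuk, the kinase that NIK activates, was at -0.03. Ikbkb, of the canonical pathway, had the lowest value, -0.20, with 235.3 CPM in Sham replicate 2 and 156.1 to 192.9 CPM in the other libraries. With reads scaled by library totals alone, Sham replicate 2 was the highest library for 6 of the 9 kinase genes. In CPM, which also use TMM factors, Btk among these 6 was instead highest in Sham replicate 1. It was at 247.3 CPM there against 242.1 CPM in Sham replicate 2. Syk, which BAFF-R and the B cell receptor both use, had the highest fold change, 0.16. Map3k7, which encodes the kinase TAK1, was at 107.3, 104.3 and 107.3 CPM in Sham and at 111, 110.4 and 108.8 CPM in OVX, apart by a narrow gap with a log2 fold change of 0.05.

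Of the 8 NF-κB subunit and inhibitor genes, 7 were above 0 and 1 below, with a median log2 fold change of 0.09. Nfkbia, the inhibitor IκBα, had the highest value, 0.23 (standard error 0.09), with 242.8, 204.1 and 220 CPM in the Sham libraries against 237.4, 279.2 and 263.9 CPM in the OVX libraries. Its groups overlapped, its unadjusted p was 0.0437 and its adjusted p 0.811 by edgeR. Nfkb2, the precursor that is cut when BAFF-R signals, had the lowest value, -0.02, with 187 ± 31.3 CPM in Sham and 184.6 ± 4.91 CPM in OVX (SD, n = 3 per group), and its partner Relb was at 0.10. The summed share of the 8 genes was 0.1245%, 0.1316% and 0.1289% of reads in the Sham libraries against 0.1319%, 0.14% and 0.1363% in the OVX libraries, so the lowest OVX library was just above the highest Sham library. With scaling on the general B cell genes the median of the list was 0.02.

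Of the 8 survival genes, 5 were above 0 and 3 below, with a median log2 fold change of 0.04, or -0.03 with scaling on the general B cell genes. Bcl2, which protects mature B cells from death, had the lowest value, -0.38, with 22.3, 63.2 and 39.4 CPM in the Sham libraries against 39.4, 28.8 and 27.9 CPM in the OVX libraries. Bcl2l1, which encodes BCL-XL, had the highest, 0.37, with 168, 84.4 and 140.5 CPM in Sham and 155.2, 194.3 and 159.4 CPM in OVX. Sham replicate 2 was the highest library for Bcl2 and the lowest for Bcl2l1, and it was also the library with the highest share of mature B cell genes. The part of B cell stage in the values of the adaptor, kinase and survival genes was not tested. Mcl1 was at 773.3 ± 32.2 CPM in Sham and 808.2 ± 98.4 CPM in OVX (SD, n = 3 per group), with a log2 difference of 0.06.

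**Figure D4:**
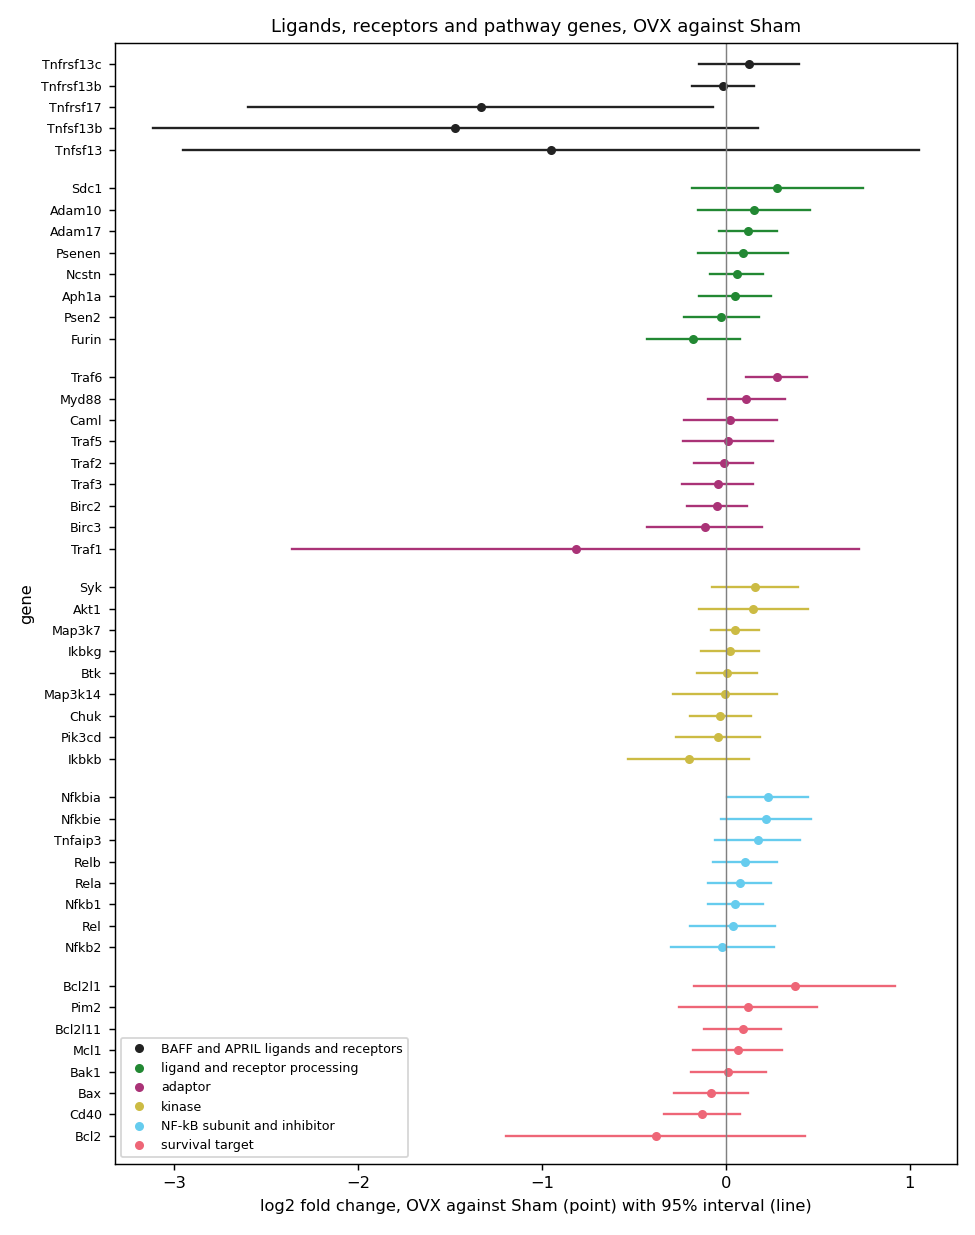
Log2 fold changes, OVX against Sham (horizontal axis, points) with 95% intervals (lines) of the 5 ligand and receptor genes (black) and the pathway genes reported here, coloured by role and ordered by value within it (vertical axis). The interval of TACI is narrower than that of BAFF-R, those of BCMA, BAFF and APRIL are several times wider than either, and BCMA, Traf6 and Nfkbia have intervals that leave out 0.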

How the data were processed

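RNA-seq of bone marrow B cells (3 Sham, 3 OVX) was used. The HIF-1α ChIP-seq sample and its input were not analysed here. The deposited values are unnormalized read counts for each Ensembl gene, 1 column per library, and the submitters' processing notes name CASAVA, Bowtie 0.12.2 and mm10, while the counting tool, annotation and strand setting are not given in the sources used here. Totals were 23838775 to 33136701 counts, so genes with few reads carry wide counting error.

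Symbols were matched to 54409 of 54532 identifiers. With edgeR 4.0.16 in R 4.3.3, genes were kept by filterByExpr (15305), scaled by TMM and compared by the quasi-likelihood test with Benjamini-Hochberg adjustment over all genes tested, called at an adjusted p under 0.05. Intervals are 95%. Log2 CPM uses a prior count of 2, and ratios use counts plus 0.5. Single genes and ratios were also compared by two-sided exact permutation tests. DESeq2 1.42.0, limma-voom (limma 3.58.1), other scalings and filters, a fold limit of 1.6, a replicate block and leaving out each library were tried, and the neutrophil share as a covariate was added after seeing the data. The code was tested on simulated data. Every library pair differed by more than sampling noise (lowest chi-square per degree of freedom 9.32).

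The 5 genes, the role lists and the marker lists were chosen with earlier results of these data known. Named are the 5 genes, in each role list the genes with the highest and lowest fold change and any with an unadjusted p under 0.05, the 3 genes most like each of the 5 among those with at least 10 CPM, the neighbours of Tnfsf13 and markers of other cells. Other pathway genes given values (Traf2, Traf3, Map3k14, Chuk, Btk, Relb, Mcl1, Map3k7) were chosen after their values were seen. Single values of some listed genes are not reported here, while the counts and medians cover the whole lists. Promoter sequences and gene positions are from RefSeq (GRCm38.p6, the build also called mm10), matched by symbol for all 5 genes. Of the 5 upstream windows, those of Tnfrsf13b and Tnfrsf17 lie within the annotated span of their own gene. The window of Tnfsf13b overlaps its own span in part, since it begins at chr8:10006217 and the gene at chr8:10006229.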

Additional observations from a re-analysis of the deposited data

How the results depend on the processing

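No gene was called in any of the alternatives, with DESeq2, limma-voom, the exact test, other scalings and filters, the block or any library left out (0 genes by edgeR with all libraries, 574 at an unadjusted p under 0.05). The direction of BCMA, BAFF and APRIL held in all alternatives that gave a value, and a mean of at least 10 counts dropped APRIL. For BAFF-R the log2 fold change was -0.0392 with the neutrophil share as a covariate and 0.0495 to 0.1275 under the other alternatives that kept all libraries. For TACI it ranged from -0.0723 to 0.0179 with 1 library left out, on both sides of 0. The log2 ratio of BAFF over APRIL differed by -0.5211 between the groups with counts plus 5 in place of 0.5, and by -0.6735 to 1.4734 with 1 library left out. For APRIL limma-voom gave a log2 fold change of -1.8526. The causes of these changes were not tested.

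Same-numbered libraries did not deviate together (correlations -0.41, -0.19 and -0.28), which gave no sign of pairing by number. The labels state no pairing, and so few values cannot settle whether libraries shared a day or batch. With the replicate number as a block 0 genes were called and the log2 fold change of BCMA was -1.2967. Scaling on the general B cell genes moved the median of all genes by -0.0691, and other scalings by less. Depth limits BCMA and APRIL, whose libraries held at most 32 and 15 reads.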

Other observations

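TWEAK, the product of the APRIL neighbour Tnfsf12, acts through the receptor Fn14, which is encoded by Tnfrsf12a. Tnfrsf12a was at 3.04, 3.28 and 2.37 CPM in the Sham libraries against 3.63, 3.21 and 3.54 CPM in the OVX libraries. The groups overlapped, with OVX replicate 2 below Sham replicate 2, and the log2 fold change was 0.26 (standard error 0.21, adjusted p = 0.812 by edgeR's quasi-likelihood test).

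None of the stage markers of B cells was called by edgeR, DESeq2 or limma-voom, and none had an unadjusted p under 0.05 by edgeR's quasi-likelihood test. Of 12 pro-B and pre-B cell genes, 10 had a fold change above 0 (median log2 value 0.32), and of 10 mature B cell genes 7 had one below 0 (median -0.33), while the median over all genes tested was -0.01. The share of the pro-B and pre-B genes was 0.422%, 0.23% and 0.295% of reads in the Sham libraries against 0.352%, 0.433% and 0.433% in the OVX libraries, so Sham replicate 1 lay among the OVX libraries. The share of the mature B cell genes was 0.26%, 0.48% and 0.282% in the Sham libraries and 0.296%, 0.288% and 0.303% in the OVX libraries. Sham replicate 2 lay above every OVX library and Sham replicates 1 and 3 lay below every one.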
